A study of Mus musculus with 58 samples.

Results

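The genes described here were 10 transcripts known from mast cells and basophils: Mcpt8, Mcpt4, Cpa3, Cma1, Tpsb2, Fcer1a, Ms4a2, Kit, Hdc and Cd200r3. They were found by Ensembl mouse gene identifier, and all 10 were among the 56953 genes of the count table. The members were chosen from reads of these same libraries, so their levels are given as a description and without a test. Adipose stem cells (ASC) were sorted from the inguinal white fat (iWAT) of C57BL6/J mice, fasted before collection, as CD45-/CD31-/CD34+ cells that were DPP4- (ASC1) or DPP4+ (ASC2), and their RNA was sequenced in bulk by Smart-seq3. Surgery was done at 4 weeks of age and tissue was taken at 10 weeks. The 58 libraries were male control ASC1 (n = 7), male control ASC2 (n = 8), castrated male ASC1 (n = 8), castrated male ASC2 (n = 8), female control ASC1 (n = 8), female control ASC2 (n = 8), ovariectomized female ASC1 (n = 3) and ovariectomized female ASC2 (n = 8). All groups shared the strain, the depot and the CD45- gate, which removes leukocytes by a surface marker. A library is named by its group and the letter near the end of its title.

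Mast cells live in tissues and basophils circulate in blood, and both store histamine and serine proteases in granules that are released when IgE bound to the surface receptor FcεRI is crosslinked. In the mouse, Mcpt8 encodes a granule protease used as a basophil marker, whereas Mcpt4, Cma1, Tpsb2 and Cpa3 are proteases of connective tissue mast cells. Stem cell factor, encoded by Kitl, binds KIT on mast cells, and IL-33, encoded by Il33, binds the receptor encoded by Il1rl1.

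Mcpt8 lies on chromosome 14 between Mcpt4 and Ctsg among other granule protease and granzyme genes (gene order from RefSeq on GRCm38). To see whether reads could be split between these relatives, the transcripts of each member were compared with those of all other genes in Gencode M21, an older annotation than the one the authors counted on. None of the 998 stretches of 31 bases in Mcpt8 transcripts occurred in another gene. Within the 741 coding bases of Mcpt8, the longest run shared with 14 related genes of the locus was 15 bases, held by Gzmb and Gzmn. The stretches of Mcpt8 and Gzmb that hold this run are shown 5′ to 3′ from the GRCm38 transcripts, with the shared 15 bases in capitals:
Mcpt8, coding bases 285 to 359: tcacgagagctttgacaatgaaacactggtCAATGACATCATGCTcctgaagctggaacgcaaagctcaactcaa
Gzmb, coding bases 288 to 362: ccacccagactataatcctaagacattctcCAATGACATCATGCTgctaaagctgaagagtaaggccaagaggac
Outside the capitals the stretches differ, and the shared run is shorter than the 31 bases compared above. Of the 31-base stretches of Mcpt4, 12.2% occurred in other genes, mainly Cma2, and of those of Cma1 10.6% occurred in Gm48934, so reads of these 2 proteases are less certain. The share was 0.557% in Tpsb2, 0.424% in Hdc, 3.96% in Ms4a2 and 3.55% in Cd200r3, and 0 stretches were shared in Kit, Cpa3 and Fcer1a.

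Total counts per library ranged from 106566 to 1421547 with a median of 682423.5. At these depths 3 reads, the limit that a count of 0 allows, correspond to 28.2 CPM, the usual library-size scaled read count, in the shallowest library and 2.11 CPM in the deepest (unscaled totals), and such limits cover counting error only. In 27 of the 58 libraries the sex transcripts (Xist and 4 genes of the Y chromosome) went against the sex label: 4 of 7 male control ASC1, 4 of 8 male control ASC2, 8 of 8 castrated ASC1, 5 of 8 female control ASC1 and 6 of 8 female control ASC2 libraries. The rule also took in libraries that held both kinds of transcript. Male control ASC2 E to H had 27 to 71 reads of Xist and 8 to 32 of the Y genes. Female control ASC2 B, E, G and H had 25 to 55 and 23 to 32. Female control ASC2 A and F and female control ASC1 B, C, D, G and H had 1 to 8 reads of Xist and 30 to 55 of the Y genes. Male control ASC1 E to H had 29 to 82 and 5 to 7. For Y gene reads in female control samples the paper proposes weak contamination with male RNA, and its part in these values was not tested. Group names below are therefore those of the labels, and values without the 27 libraries are given for Mcpt8 and beside the results that they change. The 3 ovariectomized ASC1 libraries stood apart from the rest, with a summed level of the fibroblast genes Pdgfra, Dcn, Lum and Col1a1 of 43144 to 45105 CPM against 3024 to 13975 in the other groups. All groups held these fibroblast genes. Of the genes behind the sort, Ptprc (CD45) lay between 0 and 41.8 CPM in single libraries, the group medians of Cd34 between 42.5 (castrated ASC1) and 1666 CPM, and those of Dpp4 between 7.64 and 33.9 CPM in ASC1 against 87.6 and 241 CPM in ASC2.

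The 10 genes together took 984 reads, which was 0.00246% of all counts. Mcpt8 held the most, 368 reads (37.4% of the 984), followed by Kit with 224, Hdc with 154 and Tpsb2 with 137. Only Mcpt8, Kit, Hdc and Tpsb2 reached at least 5 reads in more than 3 libraries and entered the model; Mcpt8 did so in 16 libraries, Tpsb2 in 9, and of the 6 that did not pass Cma1 came nearest with 1 library. The genes that define the high-affinity IgE receptor were almost absent. Ms4a2, its beta chain, had 0 reads in all 58 libraries, which allows up to 0.0750 CPM over the whole series, and Fcer1a, its alpha chain, had 1 read in each of 2 libraries. Cd200r3, an activating receptor of basophils and mast cells, had 7 reads in 4 libraries. In 3 libraries none of the 10 genes had a read.

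**Figure D1:**
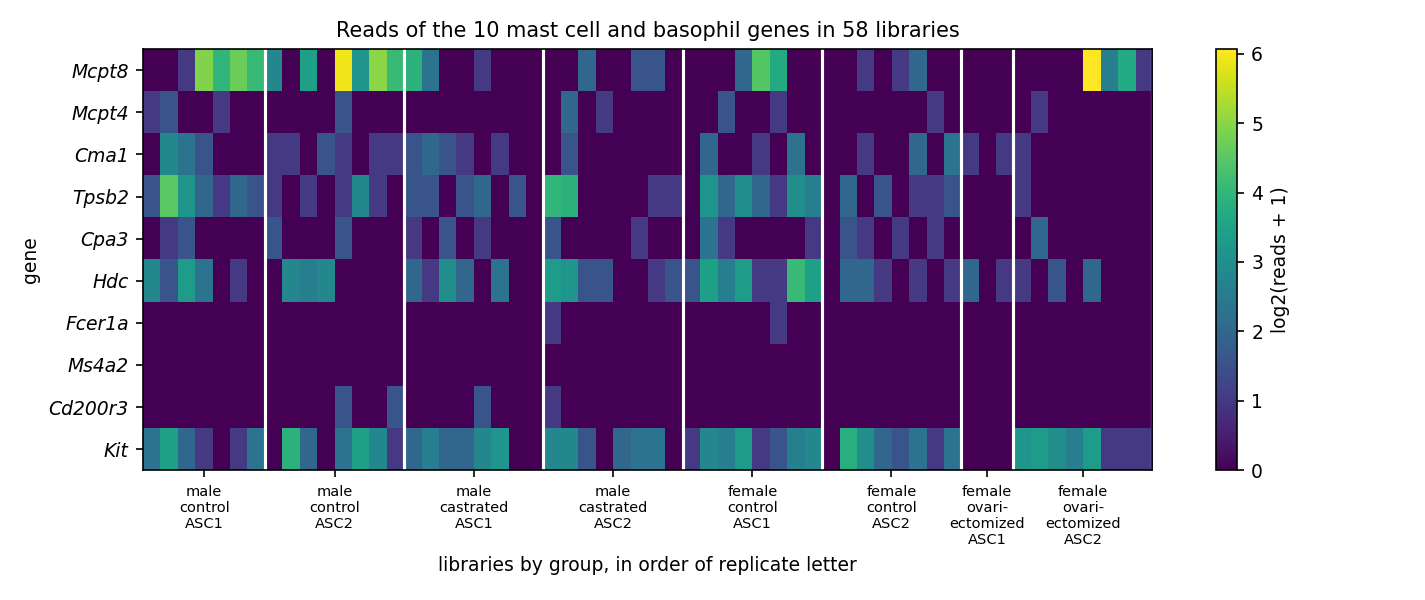
Reads of the 10 genes (rows) in the 58 libraries (columns, by group and replicate letter), coloured by log2(reads + 1). Mcpt8 reaches 66 reads in 1 ovariectomized ASC2 library, Ms4a2 is at 0 throughout, and the 3 ovariectomized ASC1 libraries hold reads of Cma1 and Hdc only.

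Mcpt8 reads were found in 27 of 58 libraries and were unevenly spread within groups. In male control ASC1 the level ranged from 0 to 55.5 CPM with a median of 22.8 and a mean of 18.7 ± 20.3 (SD, n = 7). In male control ASC2 it ranged from 0 to 48.8 CPM with a median of 13.97 and a mean of 18.2 ± 18.3 (SD, n = 8). CPM values here use library sizes scaled by TMM, which corrects for differences in composition. In both male control groups the 4 libraries E to H, which are the ones that went against the sex label, held most of the reads. They had 29, 15, 25 and 16 reads in ASC1, against 0, 0 and 1 in libraries B to D, and the ranges did not overlap. In ASC2 libraries E to H had 60, 8, 31 and 16 reads and libraries A to D had 6, 0, 10 and 0, which overlapped at the low end. Without libraries E to H the mean was 0.332 ± 0.574 CPM in male control ASC1 (SD, n = 3) and 4.69 ± 5.57 CPM in male control ASC2 (SD, n = 4).

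In female control ASC1 Mcpt8 ranged from 0 to 24.0 CPM with a median of 0 and a mean of 6.37 ± 10.5 (SD, n = 8). Its 36 reads came from libraries D, E and F with 3, 21 and 12 reads, and E and F are libraries whose sex transcripts matched the label. Without the 5 libraries against the label the mean was 15.5 ± 13.5 CPM (SD, n = 3). This includes library A, which had 2 reads of Xist and 1 of the Y genes. It was kept here and below because the rule for libraries labelled female asks for no Xist. In female control ASC2 5 reads were found in 3 of 8 libraries, at most 4.19 CPM, with a mean of 0.845 ± 1.48 (SD, n = 8). After ovariectomy ASC2 ranged from 0 to 75.5 CPM with a median of 4.28 and a mean of 16.6 ± 26.2 (SD, n = 8). Libraries M, N, O and P held 66, 5, 12 and 1 reads and libraries I to L held 0, so the group fell into libraries with and without the transcript. Without library M the mean was 8.21 CPM. The 3 ovariectomized ASC1 libraries had 0 reads, which allows up to 1.92 CPM over the group.

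In castrated ASC1 Mcpt8 had 14, 4 and 1 reads in libraries I, J and M and 0 in the other 5, a mean of 3.94 ± 8.74 CPM (SD, n = 8) that fell to 0.917 without library I. In castrated ASC2 7 reads were found in 3 of 8 libraries, at most 4.35 CPM, with a mean of 1.37 ± 1.92 (SD, n = 8). Ordered by mean, the groups ran from male control ASC1, male control ASC2 and ovariectomized ASC2 through female control ASC1 and castrated ASC1 to castrated ASC2, female control ASC2 and ovariectomized ASC1. All 8 groups held at least 1 library with 0 reads, so every pair of groups overlapped and no neighbours in this order differed beyond their spread. In bulk samples fewer cells of a type and less RNA per cell cannot be told apart.

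**Figure D2:**
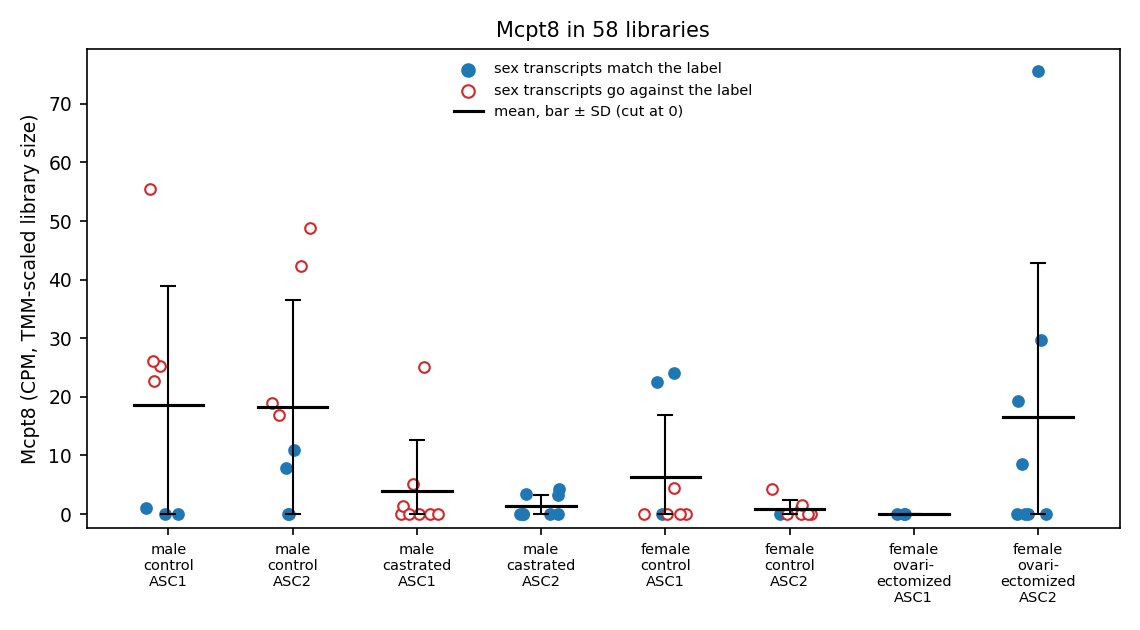
Mcpt8 level in CPM (y axis) in each of the 58 libraries by group (x axis), with the mean and SD of each group; open red circles are libraries whose sex transcripts went against the label. In male control ASC1 the 4 open circles lie from 22.8 to 55.5 CPM and the 3 filled ones from 0 to 0.995, whereas in female control ASC1 the higher libraries are filled.

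The fitted fold changes of Mcpt8 describe the same libraries and carry no p, since the gene was chosen for its reads. Against male control, the log2 fold change after castration was -2.14 ± 1.01 (SE) in ASC1 and -3.66 ± 1.12 in ASC2. The ASC1 value rests on libraries against the sex label. The 3 male control ASC1 libraries that matched the label held 1 read, a mean of 0.332 CPM, against 3.94 CPM in castrated ASC1. All 8 castrated ASC1 libraries went against their label, so no ASC1 value without such libraries exists. The ASC2 value was -1.77 ± 1.29 without the libraries against the sex label, a move of more than its own SE. For ovariectomy in ASC2 it was 4.00 ± 1.20, on 84 reads in ovariectomized against 5 in female control libraries, and 4.55 ± 2.00 without the libraries against the label. The latter value rests on 1 read in the 2 female control libraries left. The exact 95% counting interval of its ratio of reads, each over the total counts, was 4.94 to 1129. Male minus female control gave 4.14 ± 1.17 in ASC2 (131 against 5 reads) and 1.31 ± 0.94 in ASC1 (86 against 36 reads). The ASC1 direction turned without the libraries against the label, when the 3 remaining male control libraries held 1 read and the 3 remaining female control libraries held 33. The ratio of male to female reads, each over the total counts, was then 0.0166, with an exact 95% counting interval of 0.000409 to 0.0993. Between the populations, ASC2 minus ASC1 was 0.05 ± 0.83 in male control and -2.78 ± 1.30 in female control libraries. Without the libraries against the label these values were 3.19 ± 1.96 and -4.64 ± 2.11, each resting on 1 read in the lower group. In castrated mice the difference was -1.47 ± 1.34.

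Mcpt8 and at least 1 of the mast cell proteases had reads together in 22 libraries. Mcpt8 alone had reads in 5, the proteases alone in 24 and neither in 7. At a limit of 10 reads they were high in different libraries, and whether this empty overlap differs from chance was not tested. At least 10 Mcpt8 reads were found in 13 libraries, at least 10 reads over Mcpt4, Cma1, Tpsb2 and Cpa3 in 6 libraries, and both in 0; the limit of 10 reads was set after the values were seen. In the 6 libraries Mcpt8 had at most 1 read, and in the 13 libraries the 4 other proteases had at most 6. The sex transcripts also differed between these 2 sets. The 6 libraries had 0 to 6 reads of Xist and 33 to 77 of the Y genes. Of the 13, male control ASC2 C had 0 reads of Xist and 106 of the Y genes. The rest had 20 to 82 reads of Xist and 0 to 32 of the Y genes. Xist reads also occurred without Mcpt8. Ovariectomized ASC2 I to L had 41 to 87 reads of Xist and castrated ASC1 K, L and N 65 to 97, all with 0 reads of Mcpt8. The part of the sex transcripts in these levels was not tested. The strongest Mcpt8 library, ovariectomized ASC2 M with 66 reads, had 0 reads of all 4, 9 reads of Kit and 3 of Hdc. The strongest library of the other proteases, male control ASC1 C, had 31 reads of the 4 and 0 of Mcpt8. Over the 58 libraries Spearman's rho of the CPM of Mcpt8 was -0.10 with the sum of the 4 proteases, 0.00 with Tpsb2, -0.07 with Kit and -0.34 with Hdc, whereas it was 0.36 between Tpsb2 and Hdc. The points share the groups and many hold 0 reads, so these values only describe the libraries.

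**Figure D3:**
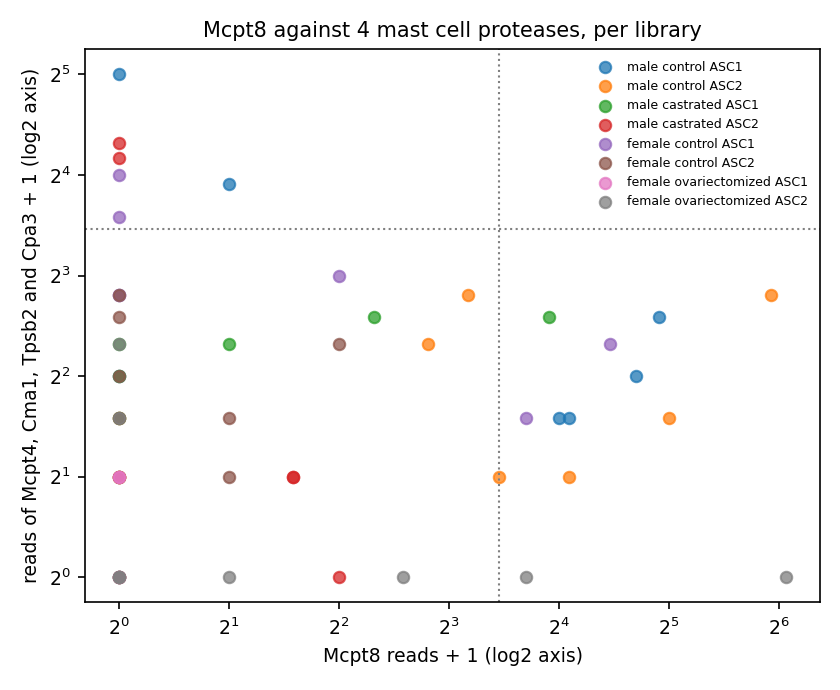
Mcpt8 reads + 1 (x axis) against the reads of Mcpt4, Cma1, Tpsb2 and Cpa3 + 1 (y axis) in each library, both on log2 axes and coloured by group; some points lie on top of each other. Dotted lines mark 10 reads, and no library lies beyond both.

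Transcripts of other leukocytes moved with this split. The summed level of 9 macrophage genes was 2823 to 6819 CPM in the 6 libraries with 10 or more reads of the 4 mast cell proteases and 603 to 1672 CPM in the 13 libraries with 10 or more Mcpt8 reads, and the ranges did not overlap. The sum of 7 pan-leukocyte genes was 278 to 666 CPM in the former and 81.8 to 142 CPM in the latter. All 9 and all 7 of these genes had reads in each group other than ovariectomized ASC1, where Adgre1 was at 0. Lyz2 made up most of the macrophage sum, with means of 2543 of 3030 CPM in male control ASC1 and 621 of 811 CPM in castrated ASC1. Values set against this sum therefore largely follow 1 gene. Over all libraries rho with the macrophage sum was -0.46 for Mcpt8, 0.32 for Tpsb2, 0.37 for Kit and 0.45 for Hdc. The part of these transcripts in the levels of the 10 genes was not tested.

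The mast cell proteases were detected at low levels. Tpsb2, a beta tryptase, was present in 34 of 58 libraries. Its mean was 7.02 ± 6.08 CPM in female control ASC1 (SD, n = 8) and 6.30 ± 5.32 CPM in male control ASC1 (SD, n = 7), and reads were found in 7 libraries of each. When the libraries against the sex label were left out, the means were 1.74 ± 1.62 CPM in female and 10.1 ± 6.34 CPM in male control ASC1 (SD, n = 3 each). The male minus female log2 fold change was -0.14 ± 0.71 (SE) with all libraries and 2.09 ± 1.28 without those against the label, on 32 male and 4 female reads. Among ASC2 libraries it averaged 1.59 ± 1.499 CPM in female control and 2.17 ± 4.31 CPM in male control libraries (SD, n = 8 each). The ASC2 minus ASC1 log2 fold change was -2.07 ± 0.80 (SE) in female and -1.81 ± 0.79 in male control libraries, but the ranges overlapped in both. Without the libraries against the label these values were -0.89 ± 1.65 on 2 ASC2 and 4 ASC1 reads, and -3.74 ± 1.24 on 2 and 32. In castrated mice the order was the other way, 4.89 ± 7.66 CPM in ASC2 and 2.45 ± 2.37 CPM in ASC1 (SD, n = 8 each), since libraries I and J of castrated ASC2 held 15 and 14 of its 31 reads. Ovariectomized ASC2 held 1 read of Tpsb2 in 8 libraries and ovariectomized ASC1 held 0.

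Cma1, a chymase, had 49 reads in 24 libraries and at most 6 reads in any. Cpa3, the mast cell carboxypeptidase, had 28 reads in 17 libraries and at most 4. Mcpt4, a second chymase-like protease, had 15 reads in 10 libraries and at most 3. Their group means lay between 0 and 2.45 CPM and each mean above 0 was smaller than its SD, so no order of groups could be read at this depth. Library C of male control ASC1, which held 22 Tpsb2 reads, also had 6 reads of Cma1, 2 of Mcpt4 and 1 of Cpa3.

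Kit, the receptor for stem cell factor, was the most widely detected of the 10 genes. It had reads in 47 of 58 libraries, and the means of the 7 groups other than ovariectomized ASC1 lay between 4.17 ± 3.11 CPM (castrated ASC2; SD, n = 8) and 7.90 ± 4.52 CPM (female control ASC1; SD, n = 8). These ranges overlapped in all pairs. The fitted log2 fold changes of Kit lay between -0.88 ± 0.63 (SE; male minus female control, ASC1) and 0.55 ± 0.62 (ASC2 minus ASC1, male control). The first of these was 1.15 ± 1.09 without the libraries against the label. In ovariectomized ASC1 0 reads were found in 3 libraries.

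Hdc, histidine decarboxylase, the enzyme that makes histamine, had reads in 37 libraries. It was present in all 8 female control ASC1 libraries, with a range of 1.07 to 24.2 CPM, a median of 13.2 and a mean of 12.1 ± 8.02 (SD, n = 8). Female control ASC2 had a mean of 1.37 ± 1.42 CPM (SD, n = 8) and at most 3.82, a log2 fold change to ASC1 of -2.83 ± 0.79 (SE). Without the libraries against the sex label this was -0.54 ± 1.52, with 4 reads on each side. Male control libraries had 4.50 ± 5.65 CPM in ASC1 (SD, n = 7) and 3.08 ± 4.88 CPM in ASC2 (SD, n = 8). Male minus female control in ASC1 was -1.47 ± 0.74 (SE) as a log2 fold change, and 1.22 ± 1.25 without the libraries against the label. Castrated ASC1 libraries averaged 2.95 ± 3.03 CPM of Hdc (SD, n = 8) and castrated ASC2 libraries 4.28 ± 4.10 CPM (SD, n = 8), within the spread of the control libraries. Ovariectomized ASC2 had 0.792 ± 1.27 CPM (SD, n = 8).

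By Spearman's rho over the 58 libraries the 5 genes most like Mcpt8 among 12463 others were Gfra1 (0.75), which encodes a GDNF family receptor, Crabp1 (0.73), a retinoic acid binding protein, Add2 (0.72), beta adducin, Stra6 (0.71), a receptor for retinol binding protein, and Sema7a (0.71), a semaphorin. Crabp1 was far more abundant than Mcpt8, with means of 735 ± 702 CPM in male control ASC1 (SD, n = 7) and 184 ± 294 CPM in female control ASC1 (SD, n = 8). Tpsb2 ranked 6403, Kit 7933 and Hdc 11766 of the same genes. With Pearson's r of log2(CPM + 1) the first 5 were Lrrc15, Crabp1, Thy1, Stra6 and Add2, of which 3 were shared with the first list. These genes were ranked on the same libraries, so the values share depth and group.

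Other genes of mast cell and basophil biology were taken from 7 lists of 68 genes that are not among the 10; 67 were found, 8 had no read in any library and 39 had enough reads to test. None of the 9 matched genes in the list of other granule proteases, which includes the mast cell tryptase Tpsab1 and the basophil protease Prss34, passed the filter on low counts. Tested were 9 genes of granule cargo and mediator synthesis, 9 of IgE receptor signalling, 10 other receptors, 4 transcription factors of the lineage, 6 ligands and cytokines and 1 gene of histamine breakdown. Genes were called at an adjusted p under 0.05 by edgeR's quasi-likelihood test with Benjamini-Hochberg adjustment over all 12464 genes tested. The labels do not say which libraries came from separate mice, while the paper counts the libraries of a group as biological replicates. The p-values measure the spread between libraries. ASC2 and ASC1 libraries may share mice, and the main fit did not pair them.

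Between castrated and control males, Lat2, Fcer1g and Alox5ap were lower in ASC1 and higher in ASC2 of the libraries labelled castrated. In ASC1 4 of 39 genes were called, all lower in castrated libraries, against 2.36% of all genes tested. Lat2, an adaptor of IgE receptor signalling, fell by 3.20 ± 0.66 on the log2 scale (SE, edgeR adjusted p = 0.0021), from 31.7 ± 31.97 CPM (SD, n = 7) in control to 3.33 ± 2.84 CPM (SD, n = 8) in castrated libraries. Fcer1g, the gamma chain shared by FcεRI and other Fc receptors, fell by 1.89 ± 0.43 (edgeR adjusted p = 0.00668), Alox5ap, which serves leukotriene synthesis, fell by 1.73 ± 0.41 (0.0101) and the kinase gene Syk fell by 1.70 ± 0.50 (0.0459). The median over the 39 genes was -0.69, against -0.01 over all genes. All 8 castrated ASC1 libraries went against their sex label, with 13 to 97 reads of Xist and at most 4 of the Y genes, so no value without such libraries exists.

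In ASC2 7 of 39 genes were called between castrated and control males, 5 higher and 2 lower after castration, against 6.96% of all genes. Lat2 rose by 2.12 ± 0.57 (SE, edgeR adjusted p = 0.0137), Alox5ap by 1.59 ± 0.38 (0.00595), Fcer1g by 1.52 ± 0.42 (0.0177) and Csf2rb, the shared beta chain of the IL-3, IL-5 and GM-CSF receptors, by 1.83 ± 0.54 (0.0282). Slc18a2, the vesicular monoamine transporter that loads histamine into granules, fell by 2.66 ± 0.77 (0.0253), from 17.3 ± 24.2 to 2.49 ± 2.76 CPM (SD, n = 8 each). Without the 4 male control libraries against the sex label 2 genes were called. Slc18a2 was then at -3.19 (edgeR adjusted p = 0.0128). The 4 named genes that rose lost their calls, with Alox5ap at 1.21 (edgeR adjusted p = 0.0682), Lat2 at 1.76 (0.111), Fcer1g at 1.32 (0.110) and Csf2rb at 1.67 (0.152). The median over the 39 genes was 0.06, against 0.00 over all genes.

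Fcer1g, Alox5ap, Lat2, Syk and Csf2rb are also expressed by macrophages. In ASC2 Syk was at -0.19 ± 0.42 (SE, edgeR adjusted p = 0.845) after castration. On average the macrophage sum moved in the same direction as these genes in ASC1, and as all but Syk in ASC2. It was 603 to 6669 CPM in male control ASC1, with libraries B to D at 5528 to 6669 and E to H at 603 to 694, and 653 to 1001 CPM in castrated ASC1. In ASC2 it was 743 to 2018 CPM in control and 1387 to 6819 CPM in castrated males, where libraries I and J had 6819 and 6160. Over the 58 libraries rho with the macrophage sum was 0.82 for Alox5ap, 0.79 for Fcer1g, 0.67 for Lat2, 0.54 for Csf2rb and 0.51 for Syk, against 0.03 for Slc18a2. The part of macrophage transcripts in these changes was not tested. Fcer1a and Ms4a2, the receptor chains that bind IgE and amplify its signal, had at most 1 read in any of these libraries.

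**Figure D4:**
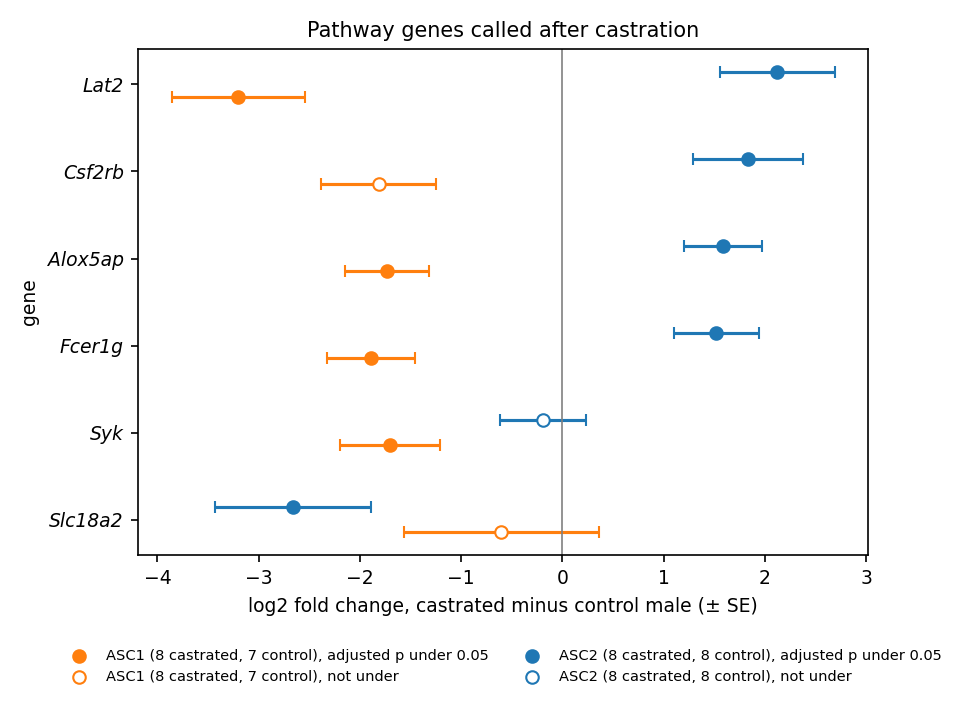
Log2 fold change of castrated minus control male (x axis, bars are SE) for the 6 named pathway genes called in either population (y axis), ASC1 in orange and ASC2 in blue, filled where the adjusted p was under 0.05. Lat2, Csf2rb, Alox5ap and Fcer1g lie below 0 in ASC1 and above 0 in ASC2, Csf2rb without a call in ASC1.

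Ovariectomy in ASC2 gave 0 calls among the 39 genes by edgeR, against 2.09% of all genes, with 10 genes at an unadjusted p under 0.05, and DESeq2 called 1. The median log2 fold change of the 39 genes was -0.22. In ASC1, where the 3 ovariectomized libraries stand apart, 11 of 39 genes were called against 34.8% of all genes, and 4 without library L. Fcer1g (-4.54), Ccl2 (-3.38) and Ndst2 (-3.24) were lower in ovariectomized ASC1, and Kitl (1.92) and Hnmt (3.69) were higher, as log2 fold changes. Without the female control libraries against the label Fcer1g was at -3.08 (edgeR adjusted p = 0.0325), and the other 4 also kept their calls. Between ovariectomized ASC2 and ASC1 11 of 39 genes were called, against 35.4% of all genes, and 3 without library L. By lowest p these were Kitl (-2.90), Ccl2 (3.60), Ndst2 (3.55), Il1rl1 (9.39) and Itga2 (4.25); Il1rl1 and Itga2 rest on 1 read each and Ndst2 on 2 reads in the ASC1 libraries.

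Between male and female control libraries 1 of 39 genes was called in ASC1, against 0.289% of all genes, and 2 in ASC2, against 6.50%. In ASC1 Ccl11, which encodes the eosinophil chemokine eotaxin, was higher in libraries labelled male, at 670 ± 443 CPM (SD, n = 7) against 205 ± 126 CPM (SD, n = 8), a log2 fold change of 1.70 ± 0.41 (SE, edgeR adjusted p = 0.0445). Without the libraries against the label the value was -0.58 (edgeR adjusted p = 0.797). In ASC2 Slc18a2 was higher in libraries labelled male by 2.45 ± 0.75 (edgeR adjusted p = 0.0355) and was 3.32 (0.166) without the libraries against the label. Kitl was higher by 1.03 ± 0.32 (edgeR adjusted p = 0.0360), and by 2.55 (0.00559) without these libraries.

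Between ASC2 and ASC1 of male control libraries 8 of 39 genes were called, 4 higher and 4 lower in ASC2, against 12.2% of all genes. Cd200, which encodes the ligand of the CD200 receptors, was higher in ASC2 by 2.42 ± 0.47 (SE, edgeR adjusted p = 0.000254), and the kinase gene Fyn by 1.06 ± 0.28 (0.00784). Lower in ASC2 were Fcer1g at -2.03 ± 0.43 (0.000666), Lat2 at -2.23 ± 0.58 (0.0064) and Alox5ap at -1.496 ± 0.39 (0.00759). Fyn lost its call without the libraries against the label, at 1.24 (edgeR adjusted p = 0.0551), and the other 4 kept theirs. In female control libraries 7 of 39 genes were called, 3 higher and 4 lower in ASC2, against 6.11% of all genes. Itgb7, an integrin subunit used by mast cell progenitors, was at 2.56 ± 0.57 (edgeR adjusted p = 0.00182), Cd200 at 1.63 ± 0.40 (0.00552), Fyn at 1.09 ± 0.28 (0.00716), Lat2 at -2.57 ± 0.62 (0.00423) and Cd63, a granule membrane protein found in many cells, at -0.54 ± 0.16 (0.0290). Without the libraries against the label 0 genes were called in the female control comparison, with 2 ASC2 and 3 ASC1 libraries left. In castrated mice 8 of 39 genes were called, 7 higher and 1 lower in ASC2, against 9.09% of all genes. Itgb7 was at 3.22 ± 0.59 (edgeR adjusted p = 0.000127), Lat2 at 3.09 ± 0.65 (0.000787), Alox5ap at 1.83 ± 0.40 (0.00143), Cd200 at 1.63 ± 0.44 (0.00934) and Mitf, a transcription factor of mast cells and pigment cells, at -0.999 ± 0.23 (0.00274). The castrated ASC1 libraries carried Xist reads and the castrated ASC2 libraries 21 to 75 reads of the Y genes, so population and sex transcripts cannot be told apart here. The macrophage sum was 653 to 1001 CPM in these ASC1 and 1387 to 6819 CPM in these ASC2 libraries, and its part in the values of Lat2 and Alox5ap was not tested.

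The ligands of mast cells were expressed in all 8 groups. Kitl had reads in every library, with group means from 20.2 ± 7.32 CPM in ovariectomized ASC2 (SD, n = 8) to 92.5 ± 43.5 CPM in male control ASC2 (SD, n = 8) and 138 ± 50.1 CPM in ovariectomized ASC1 (SD, n = 3). After ovariectomy Kitl in ASC2 lay between 9.27 and 27.2 CPM, in female control ASC2 between 9.501 and 76.9 CPM, and the groups overlapped (log2 fold change -1.24 ± 0.36 (SE), edgeR adjusted p = 0.0539). The 2 female control ASC2 libraries that matched the label were at 27.5 and 9.501 CPM, with a mean of 18.5 ± 12.8 (SD, n = 2), so the lower mean after ovariectomy was not seen without the libraries against the label. Il33 was also present in every library and ranged from 37.2 ± 55.9 CPM in castrated ASC1 (SD, n = 8) to 158 ± 62.9 CPM in male control ASC2 (SD, n = 8). In castrated mice Il33 was higher in ASC2, at 114 ± 53.8 CPM (SD, n = 8), by 1.55 ± 0.47 on the log2 scale (SE, edgeR adjusted p = 0.0261). Its median in castrated ASC1 was 8.95 CPM, while libraries I and J were at 138 and 116 CPM, and all 8 of these libraries went against their sex label.

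**Figure D5:**
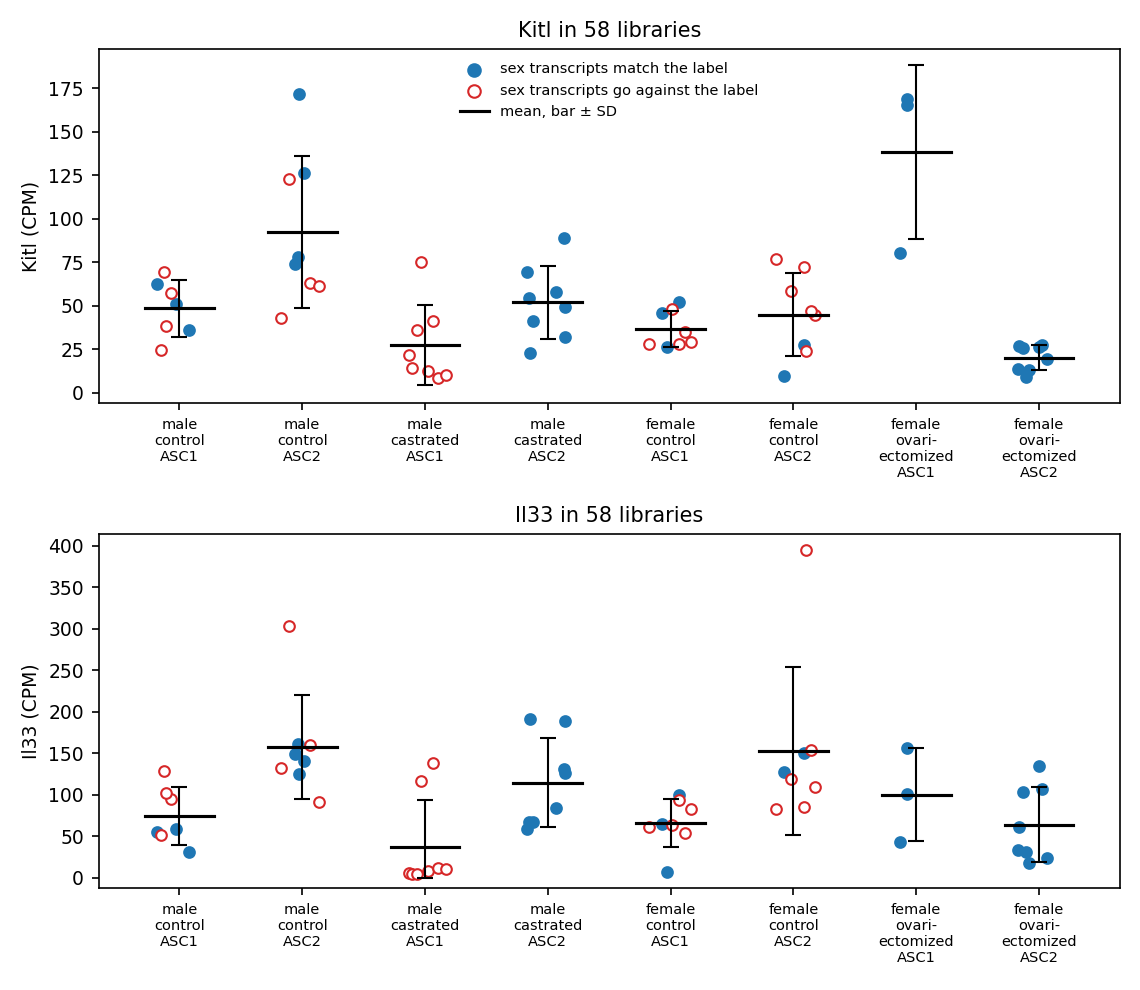
Kitl (upper panel) and Il33 (lower panel) in CPM (y axes) in each of the 58 libraries by group (x axis), with the mean and SD; open red circles are libraries whose sex transcripts went against the label. Kitl is at most 27.2 CPM in the ovariectomized ASC2 libraries, and Il33 is highest in a female control ASC2 library at 394 CPM.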

How the data were processed

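RNA of sorted iWAT ASC was sequenced by Smart-seq3 in 58 libraries. The authors removed adapters with NGmerge, mapped all reads with or without a molecular identifier together with Salmon 1.9.0 to Gencode M32 (GRCm39), left out libraries in which too few genes were detected, and deposited the estimated counts, of which 15.0% of values above 0 were not whole. Here counts were rounded, symbols were assigned by Ensembl identifier (1 listed gene was not found), and a gene was tested if more than 3 libraries held at least 5 of its reads. Depth was 106566 to 1421547 counts per library, and no libraries of a group were alike within sampling noise (lowest chi-square per gene 1.53). edgeR 4.0.16 (R 4.3.3; TMM, quasi-likelihood, 1 coefficient for each of 8 groups, common biological coefficient of variation 35.6%) gave fold changes, with SE computed as the log2 fold change over the square root of F, and was tested on simulated data. DESeq2 1.42.0, other scalings and filters, blocks by replicate letter and fits without doubted libraries were alternatives. A library went against its sex label with at least 20 Xist reads or fewer than 3 reads over 4 Y genes (labelled male) or at least 3 such reads (labelled female). Members and lists were chosen with earlier results of these data known. Named were all 10 members, of each comparison up to 5 called pathway genes of lowest p, Kitl, Il33 and the 5 genes most like Mcpt8. The difference between the castration effects of the 2 populations was tested after both were seen. Genome coordinates are not given, since the annotation used here for sequences is of another build.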

Additional observations from a re-analysis of the deposited data

Results flagged for a closer look

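Fold changes between libraries labelled castrated and control male differed between ASC2 and ASC1 for 4 pathway genes. The test was of the difference itself and was chosen after both effects were seen. It called 301 of 12464 genes (2.41%) and 6 of the 39 pathway genes. The difference in log2 fold change, ASC2 minus ASC1, was 5.32 ± 0.87 (SE; edgeR adjusted p = 0.000162) for Lat2, 3.41 ± 0.60 (0.000332) for Fcer1g, 3.32 ± 0.57 (0.000244) for Alox5ap and 3.65 ± 0.78 (0.00372) for Csf2rb. Also called were Cd200r1 at 3.19 ± 0.90 (edgeR adjusted p = 0.0388) and, in the other direction, Mitf at -1.43 ± 0.33 (0.00866). All 8 castrated ASC1 libraries went against their sex label. They carried 13 to 97 reads of Xist, and the castrated ASC2 libraries 21 to 75 reads of the Y genes. Castration and sex transcripts can therefore not be told apart in this difference. Without the male control libraries against the label none of the first 4 genes was called in ASC2, with edgeR adjusted p of 0.0682 for Alox5ap, 0.110 for Fcer1g, 0.111 for Lat2 and 0.152 for Csf2rb. The macrophage sum differed between the same libraries, and its part in this was not tested.

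Single libraries lay far from the rest of their group. For Mcpt8 these were ovariectomized ASC2 M at 75.5 CPM with the next library at 29.7, castrated ASC1 I at 25.1 CPM with the next at 5.11, and female control ASC2 F at 4.19 CPM, which is 3 reads. For Tpsb2 they were male control ASC1 C at 17.2 CPM, male control ASC2 F at 12.7 CPM and ovariectomized ASC2 I at 1.05 CPM, the last on 1 read. Kit was at 16.6 CPM in female control ASC2 B and Hdc at 13.4 CPM in male control ASC2 D. Il33 was at 394 CPM in female control ASC2 E and at 303 CPM in male control ASC2 F. These were 10 of 42 group levels examined. The limit used picks about 1 in 20 groups by chance for normally spread values, a rate that does not hold where most libraries are at 0, so no excess can be read from the count.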

How the results depend on the processing

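Most values kept their side and direction under the other settings. Counts of called pathway genes among 39 moved by more than 1.5 times as follows. For castration in ASC1 the count was 4, and 7 with no filter on low counts and 8 with only the 2 groups in the fit. For castration in ASC2 it was 7, and 4 with only the 2 groups and 2 without libraries against their sex label. For ovariectomy in ASC2 it was 0, and 2 with no filter, 1 with filterByExpr and 1 with DESeq2. For sex in ASC1 it was 1, and 0 with library size only, with robust estimation, with only the 2 groups and without the ovariectomized ASC1 libraries (chosen after seeing the data), and 2 without libraries against their label. For sex in ASC2 it was 2, and 1 with only the 2 groups. For ovariectomy in ASC1 it was 11, and 7 without libraries against their label and 4 to 12 leaving out 1 ovariectomized ASC1 library. For ASC2 against ASC1 in ovariectomized mice it was 11, and 3 to 10 leaving out 1 such library. In female controls it was 7, and 0 without libraries against their label. The cause was not tested.

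Without libraries against their label the log2 fold change of Mcpt8 was -1.77 for castration in ASC2 and 2.80 for sex in ASC2. It was 3.19 and -4.64 for ASC2 against ASC1 in male and female controls. The last 3 values each rest on 1 read in the lower group. For sex in ASC1 it reversed to -5.04, on 1 male read. Kit, Hdc and Tpsb2 changed sign as well for sex in ASC1, to 1.15, 1.22 and 2.09. Scaled to the shallowest library, 16 libraries rather than 27 would hold a Mcpt8 read.

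Replicate letters are shared between groups only for the sex and population comparisons. Correlations of same-lettered deviations ran from -0.21 to 0.33 and not all passed 0.1 in any comparison. For sex in ASC1 5 of 7 did, so whether the letters mark pairs was not settled. With the letter as a replicate block the count was 2 for sex in ASC1, 1 for sex in ASC2 and 3 for ovariectomized mice, where a block by presumed mouse gave 7, and within 1.5 times elsewhere.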
